A study of Mus musculus with 6 samples.

Results

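The hepatic transporters described here are 10 genes that carry bile acids, bilirubin, conjugated drugs and phospholipid across the membranes of liver cells. They were taken by symbol from the 21983 genes counted in whole liver, and all 10 were found. The groups were 3 Lrat-Cre; Prmt1f/f mice (numbers 49, 82 and 88, called knockout here) and 3 Prmt1f/f mice without Cre (numbers 42, 83 and 90, called control here). All 6 were C57BL/6 mice carrying Prmt1f/f, the controls included, and all had drunk thioacetamide (TAA), a hepatotoxin that scars the liver, at 400 mg/L for 16 weeks. Cre was driven from Lrat, which in liver marks hepatic stellate cells and not hepatocytes, so the deletion was aimed at a cell type other than the one that makes most of these transporters. No liver without TAA is part of the comparison. The labels give an age of 10 weeks, without its time point, and no sex. The study set the liver transcriptome of the 2 genotypes against each other, and the question here is how the transporter transcripts differed between them.

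Bile acids circulate between gut and liver. Hepatocytes take them up from sinusoidal blood across the basolateral membrane through a sodium-coupled carrier, NTCP (Slc10a1), and sodium-independent organic anion carriers of the OATP family (Slco genes). They secrete them into the bile canaliculus through the ATP-driven bile salt export pump BSEP (Abcb11), beside pumps for phosphatidylcholine (Abcb4, MDR2) and for conjugated bilirubin and glutathione conjugates (Abcc2, MRP2). A second set of basolateral exporters, MRP4 (Abcc4) and the heteromeric organic solute transporter whose beta subunit is Slc51b, returns bile acids to blood and is known to be induced when bile flow is blocked. Nuclear receptors set much of this expression: FXR (Nr1h4) senses bile acids, and CAR (Nr1i3) and PXR (Nr1i2) sense foreign compounds.

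Total counts were between 13303884 and 16462278 per library. Prmt1, the gene the genotype targets, had 35.8, 24.7 and 25.8 CPM (the count scaled to 1e+06 per library) in knockout mice 49, 82 and 88, against 38.9, 44.4 and 49.8 CPM in control mice 42, 83 and 90. The groups did not overlap, and edgeR gave a log2 fold change of -0.62 (SE 0.20, adjusted p = 0.347, from a quasi-likelihood test run over all genes). The 13 hepatocyte marker genes were abundant in every library, their summed level lying between 97295 and 117466 CPM in knockout and between 80883 and 124020 CPM in control livers. Knockout mouse 49 stood apart from the other 2 knockout mice in several transporters. The labels describe separate mice, and p-values measure the spread between them. In RNA of whole liver, fewer cells of a type and less RNA per cell cannot be told apart.

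The sequences printed here are those of Slco1b2, Slco1a4, Slco1a1 and Abcb11, and the windows of the other transporters are not printed. Slco1b2, Slco1a4 and Slco1a1 are neighbours in a cluster of OATP genes on chromosome 6, with Slco1b2 on the plus and both Slco1a genes on the minus strand, and Abcb11 lies on chromosome 2. Each sequence is the 250 bases before the gene's start as annotated by RefSeq on GRCm38.p6, the assembly also called mm10, read 5′ to 3′ on the gene's strand. Capitals mark AGGTCA, the half-site that many nuclear receptors bind, or its reverse complement TGACCT.
Slco1b2 (chr6:141629268-141629517, plus strand): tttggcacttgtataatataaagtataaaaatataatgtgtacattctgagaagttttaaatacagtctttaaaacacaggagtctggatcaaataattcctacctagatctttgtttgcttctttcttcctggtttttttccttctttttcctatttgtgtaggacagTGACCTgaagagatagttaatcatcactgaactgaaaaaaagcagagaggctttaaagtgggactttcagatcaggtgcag
Slco1a4 (chr6:141856221-141856470, minus strand): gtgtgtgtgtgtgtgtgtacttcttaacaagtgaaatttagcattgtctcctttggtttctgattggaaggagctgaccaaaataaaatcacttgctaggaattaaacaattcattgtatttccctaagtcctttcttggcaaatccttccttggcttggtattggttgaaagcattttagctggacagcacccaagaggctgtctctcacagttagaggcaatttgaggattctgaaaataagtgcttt
Slco1a1 (chr6:141946963-141947212, minus strand): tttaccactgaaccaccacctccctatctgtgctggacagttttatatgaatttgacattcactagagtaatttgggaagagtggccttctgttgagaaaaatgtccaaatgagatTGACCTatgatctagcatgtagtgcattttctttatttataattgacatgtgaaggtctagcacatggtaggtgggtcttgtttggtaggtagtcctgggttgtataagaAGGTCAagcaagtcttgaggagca
Abcb11 (chr2:69342617-69342866, minus strand): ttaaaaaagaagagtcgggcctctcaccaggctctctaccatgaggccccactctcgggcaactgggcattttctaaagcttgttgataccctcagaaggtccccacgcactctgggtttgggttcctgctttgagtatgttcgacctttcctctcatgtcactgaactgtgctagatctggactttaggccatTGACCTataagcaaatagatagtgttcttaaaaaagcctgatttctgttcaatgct
The half-site was searched on both strands. Its first base lies 81 bases before the start of Slco1b2 and 56 before that of Abcb11, and it occurs at 134 and at 24 bases before the start of Slco1a1. These letters are not in the window of Slco1a4. The other transporter genes with the half-site were Slc10a1, Abcc2 and Slc51b. The half-site was in 6 of the 14 annotated start windows of the 10 transporter genes (42.9%), and in 14.0% of the 32851 such windows of all genes. In the inverted repeat IR-1, the textbook form of an FXR element, AGGTCA and TGACCT are parted by a single base. In exactly these letters it was in 0 of the 14 windows and in 2 of the 32851. The search allowed no mismatch, so the count cannot show whether variants of the repeat are present. In the Abcb11 window TGACCT follows aggccat, where AGGCCA differs from AGGTCA in a single letter. A match to letters is a description of the window and not a measured binding site.

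None of the transporters passed an adjusted p of 0.05 in edgeR, where 0.00% of the 13153 genes tested passed (1448 had an unadjusted p under 0.05). Of the 10 transporters, 9 had enough counts to be tested, Slc51b being the exception. Of these 9, 7 had a positive fold change, as did 47.3% of all genes tested, and their median log2 fold change was 0.85, against -0.02 for all genes tested. An unadjusted p under 0.05 was found for 5, all of them higher in knockout livers. These were 4 of the 5 uptake carriers (Slc10a1, Slco1a4, Slco1b2 and Slco2b1) and the bile salt export pump Abcb11. Of all genes tested, 5.06% were higher and 5.95% lower in knockout livers at that level, 11.0% in all. In 4 of them, all but Slc10a1, each knockout mouse lay above each control mouse, which held for 8.94% of all genes tested. Another 7.95% had each knockout mouse below each control mouse, so that 16.9% did not overlap in either direction. DESeq2, run as an alternative, passed 3 of the 9 at an adjusted p of 0.05, with 1.81% of its genes passing and 0.875% passing as higher in knockout livers: Abcb11 (adjusted p = 0.0105), Slco1b2 (adjusted p = 0.0140) and Slco1a4 (adjusted p = 0.0223).

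**Figure D1:**
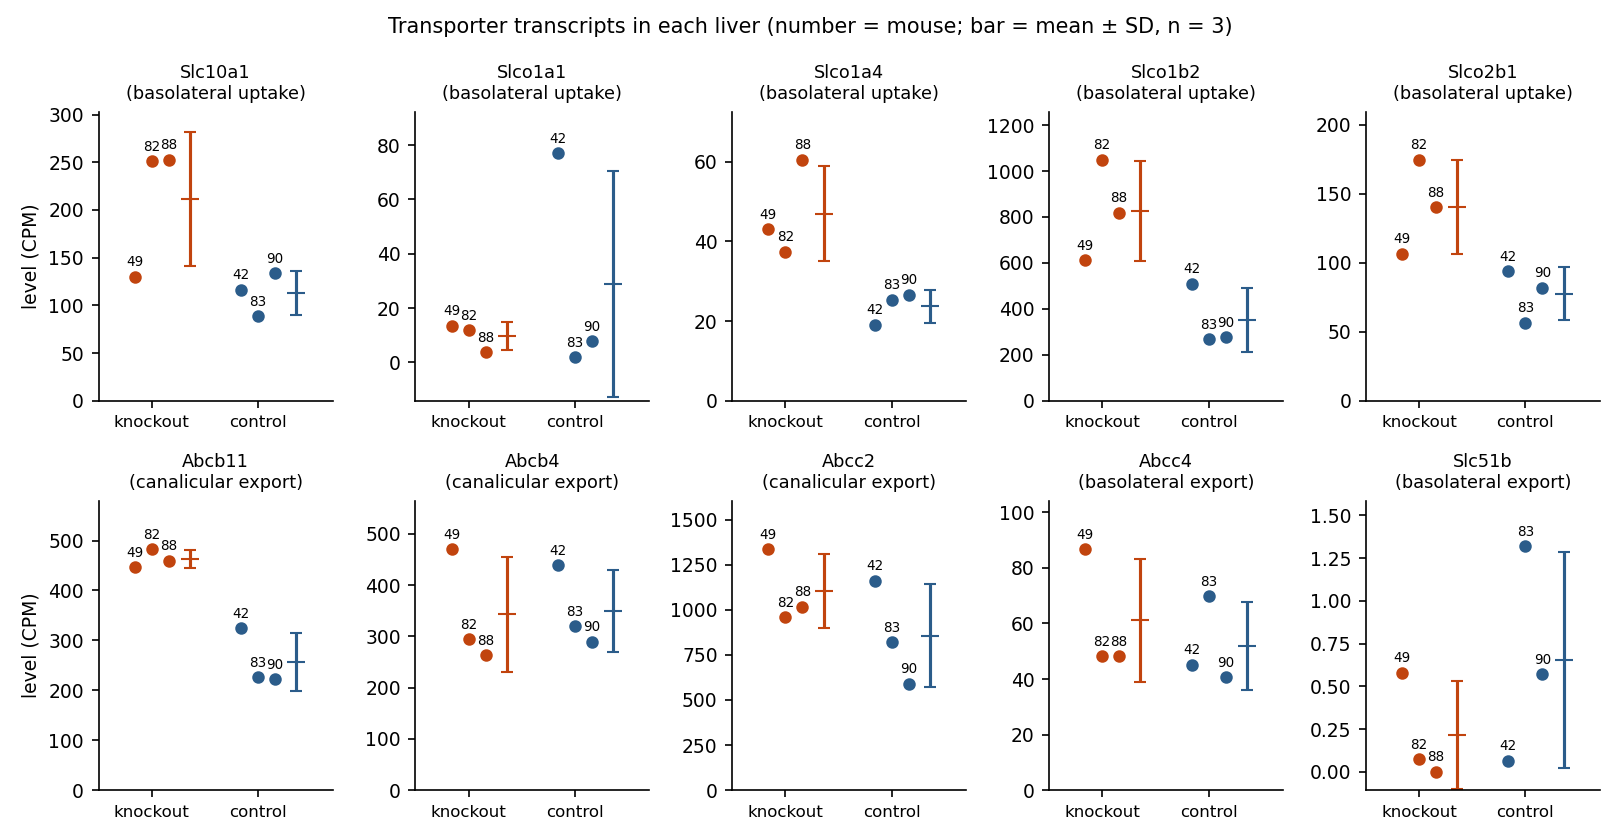
Level of each transporter transcript in CPM in the 3 knockout (left in each panel) and 3 control livers, each point being a mouse with its number, and each bar the mean ± SD. Knockout and control points are apart in Slco1a4, Slco1b2, Slco2b1 and Abcb11, and the control mean of Slco1a1 rests on mouse 42 (77.0 CPM).

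Slco1b2 encodes OATP1B2, the mouse counterpart of the human liver carriers OATP1B1 and OATP1B3, which takes up bilirubin, unconjugated bile acids and many drugs. It had 611.8, 1049 and 818 CPM in knockout mice 49, 82 and 88, against 511, 267.6 and 277 CPM in control mice 42, 83 and 90. The groups were apart, with knockout mouse 49 and control mouse 42 the nearest pair. The means were 826 ± 219 CPM in knockout and 352 ± 138 CPM in control livers (SD, n = 3 each), a 2.35-fold difference with a 95% interval from 1.40 to 3.94. The log2 fold change was 1.23 (SE 0.33, adjusted p = 0.311 in edgeR), the largest positive one among the 9 transporters tested. Its span on GRCm38 runs from 141629518 to 141686646 on chromosome 6. No stretch of 50 bases of its transcripts was found in transcripts of another gene, so its counts are not shared with a paralogue at that length.

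Slco1a4 encodes OATP1A4, a carrier of bile acids, steroid conjugates and cardiac glycosides that is known as a target of CAR and PXR in mouse liver. Its levels were 43.1, 37.4 and 60.5 CPM in knockout mice 49, 82 and 88, against 19.1, 25.4 and 26.6 CPM in control mice 42, 83 and 90. Each knockout mouse exceeded each control mouse, and mouse 49, which was the lowest knockout mouse for Slco1b2, was here above mouse 82. The fold was 1.98 (95% interval 1.38 to 2.84; log2 fold change 0.99, SE 0.23, adjusted p = 0.267 in edgeR). Among the 9 transporters it had the smallest p, ranking 96th of 13153 genes. It spans 141805440 to 141856199 on the minus strand of chromosome 6, and 1.61% of the stretches of 50 bases in its transcripts also occur in another gene, nearly all of them in Slco1a5. Slco1a5 had 0 counts in the 3 knockout livers and 0, 3 and 0 in control mice 42, 83 and 90.

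Slco2b1 encodes OATP2B1, which takes up steroid sulfates and other organic anions. It had 106.7, 174.6 and 140.2 CPM in knockout mice 49, 82 and 88, against 94.1, 56.6 and 82.04 CPM in control mice 42, 83 and 90. The order of the mice within each genotype was that of Slco1b2, with mouse 82 highest and mouse 83 lowest. The fold was 1.81 (95% interval 1.21 to 2.71; log2 fold change 0.86, SE 0.26, adjusted p = 0.323 in edgeR). Of its stretches of 50 bases, 5.89% also occur in another gene, most of them in the antisense gene Gm15635 that overlaps it, and since no strand setting is given such reads cannot be told apart. The gene spans 99657804 to 99711340 on the minus strand of chromosome 7. The counts of Slco2b1 per count of Slco1b2 were 0.174, 0.166 and 0.171 in knockout mice 49, 82 and 88, against 0.184, 0.212 and 0.296 in control mice 42, 83 and 90. The knockout livers were close together and below each control liver in this ratio, which was chosen after the values were seen and was not tested.

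Slc10a1 encodes NTCP, the main uptake route for conjugated bile acids. It had 130.2, 251 and 253 CPM in knockout mice 49, 82 and 88, against 116.4, 88.7 and 133.9 CPM in control mice 42, 83 and 90. Mice 82 and 88 were high, while mouse 49 lay within the range of the controls, so the groups overlapped. The fold was 1.87 (95% interval 1.185 to 2.96; log2 fold change 0.90, SE 0.29, adjusted p = 0.347 in edgeR). The gene spans 80953183 to 80968705 on the minus strand of chromosome 12.

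Slco1a1 encodes OATP1A1, an uptake carrier that in mouse liver is known to be higher in males, whereas Slco1a4 is known to be higher in females. It had 13.5, 11.8 and 3.82 CPM in knockout mice 49, 82 and 88, against 77.0, 1.93 and 7.69 CPM in control mice 42, 83 and 90. Control mouse 42 was far above the other 5 mice, and control mouse 83 was the lowest of all 6. On the log2 scale the fold change was -1.57 (SE 1.07; 95% interval from -4.00 to 0.87; adjusted p = 0.603 in edgeR), and the exact two-sided permutation p of log2 CPM was 1. Without control mouse 42 the log2 fold change was 1.05, with an adjusted p of 0.422 in edgeR, so the sign rests on 1 liver. The gene spans 141907282 to 141946962 on the minus strand of chromosome 6. Slco1a1 and Slco1a4 share few stretches of 50 bases (1.64% of those of Slco1a1 occur in another gene), and the mouse with the highest Slco1a1 had the lowest Slco1a4. The counts of Slco1a4 per count of Slco1a1 were 3.19, 3.16 and 15.8 in knockout mice 49, 82 and 88, against 0.248, 13.2 and 3.46 in control mice 42, 83 and 90.

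Because both Slco1a genes differ between the sexes, transcripts that bear on sex were read. In these mice the Y-linked genes Ddx3y, Eif2s3y, Kdm5d and Uty were expressed in all 6 livers, so each mouse read as male by these transcripts. Ddx3y, an RNA helicase, had 85.8, 81.2 and 83.4 CPM in knockout and 75.8, 67.4 and 59.7 CPM in control livers in the order of mouse numbers. Kdm5d, a histone demethylase, lay between 18.7 and 24.7 CPM in knockout and between 14.97 and 21.3 CPM in control livers. Eif2s3y, a translation factor subunit, lay between 33.7 and 45.1 CPM in knockout and between 32.5 and 42.3 CPM in control livers, and Uty, a homologue of the demethylase Utx, between 20.3 and 22.3 CPM in knockout and between 12.4 and 19.7 CPM in control livers. Of 10 genes known to be higher in male liver, Slco1a1 included, 7 were negative (median log2 fold change -0.46). Among 8 tested genes known to be higher in female liver, Slco1a4 included, 6 were positive (median 1.04). All genes tested were positive in 47.3%, with a median of -0.02. The male-biased fatty acid elongase Elovl3 had 11.7, 2.25 and 0.865 CPM in knockout mice 49, 82 and 88, against 15.0, 0.457 and 2.94 CPM in control mice 42, 83 and 90. Like Slco1a1, it was highest in control mouse 42 and lowest in control mouse 83, as were Cyp2d9 and Hsd3b5. Other male-biased genes differed from this order. Cyp2u1 and Ugt2b38 were highest in control mouse 42 but lowest in knockout mouse 88. Cyp4a12a and Cyp4a12b were highest in knockout mouse 49 and lowest in knockout mouse 88.

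Abcb11 encodes BSEP, the pump whose rate sets bile salt secretion. It had 447, 483 and 459.7 CPM in knockout mice 49, 82 and 88, against 324.5, 226 and 222 CPM in control mice 42, 83 and 90. The knockout livers were close together and all above the controls, with means of 463 ± 18.2 CPM in knockout and 258 ± 58.0 CPM in control livers (SD, n = 3 each). The fold was 1.80 (95% interval 1.26 to 2.56; log2 fold change 0.85, SE 0.22, adjusted p = 0.306 in edgeR). Of its stretches of 50 bases, 1.68% also occur in the overlapping antisense gene Gm13613. Abcb11 spans 69238282 to 69342616 on the minus strand of chromosome 2. The exact two-sided permutation p of log2 CPM was 0.1 for Abcb11, Slco1a4, Slco1b2 and Slco2b1, the smallest that 3 mice against 3 can give.

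Abcb4, whose floppase MDR2 supplies the phosphatidylcholine that makes bile salts less harmful to bile ducts, overlapped between genotypes. It had 470.3, 294 and 263 CPM in knockout mice 49, 82 and 88, against 439, 319.6 and 289 CPM in control mice 42, 83 and 90. Mice 49 and 42 were the high ones, and the other 4 were within a narrow range of both genotypes. On the log2 scale the difference was -0.03 (SE 0.28; 95% interval from -0.67 to 0.61; adjusted p = 0.977 in edgeR), so that a difference of up to about 1.53-fold in the higher direction lay within the interval. The counts of Abcb11 per count of Abcb4, a ratio that needs no scaling between libraries, were 0.951, 1.64 and 1.75 in knockout mice 49, 82 and 88, against 0.739, 0.707 and 0.768 in control mice 42, 83 and 90. Knockout livers thus had more BSEP transcript per MDR2 transcript in every mouse, by the smallest margin in mouse 49. This ratio, too, was chosen after the values were seen and was not tested. The counts of Abcb11 per count of Abcc2 overlapped between genotypes. They were 0.334, 0.504 and 0.452 in knockout mice 49, 82 and 88, against 0.280, 0.275 and 0.377 in control mice 42, 83 and 90. Abcb4 spans 8893717 to 8959231 on chromosome 5, and 2.87% of its stretches of 50 bases occur in another gene, most often in the drug pump gene Abcb1a.

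Abcc2 encodes MRP2, the canalicular pump for bilirubin glucuronides and glutathione conjugates. It had 1337, 959 and 1018 CPM in knockout mice 49, 82 and 88, against 1161, 821.8 and 589.8 CPM in control mice 42, 83 and 90. Control mouse 42 was above knockout mice 82 and 88, so the groups overlapped. Its log2 fold change of 0.37 (SE 0.30; 95% interval from -0.31 to 1.05; adjusted p = 0.659 in edgeR) became 0.12 without control mouse 90 and 0.65 without control mouse 42. Abcc2 counts gave Slco1b2 a ratio of 0.458, 1.09 and 0.804 in knockout mice 49, 82 and 88, against 0.440, 0.326 and 0.470 in control mice 42, 83 and 90, where mouse 49 lay among the controls. Abcc2 spans 43782192 to 43840740 on chromosome 19.

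**Figure D2:**
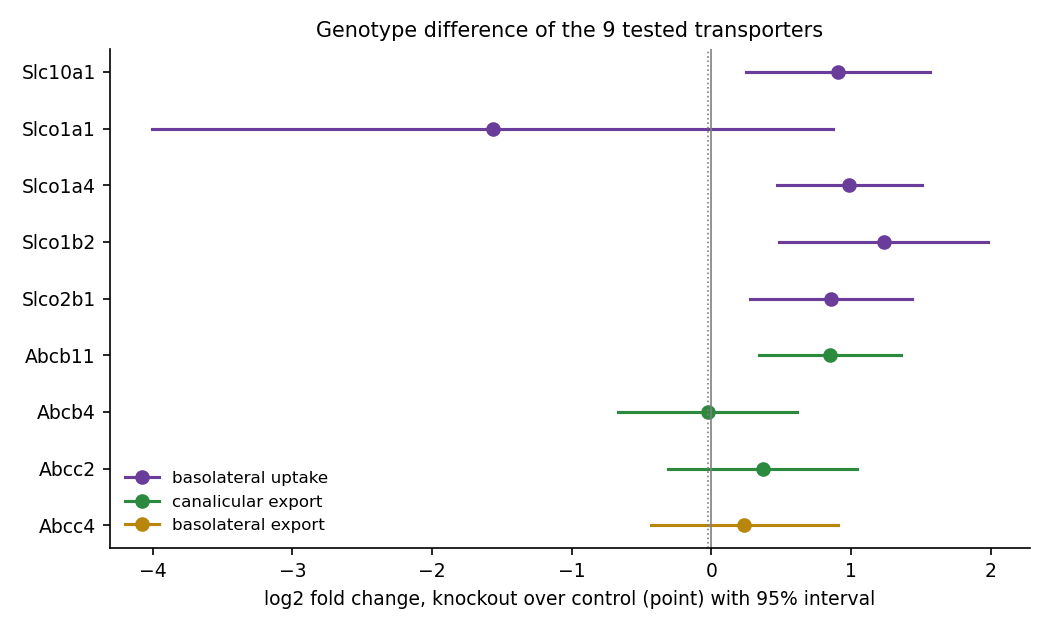
Log2 fold change of knockout over control (points) with 95% intervals (lines) for the 9 tested transporters, coloured by role; the solid line is 0 and the dotted line the median of all genes tested (-0.02). The intervals of Slc10a1, Slco1a4, Slco1b2, Slco2b1 and Abcb11 lie above 0 before adjustment for the number of genes, and those of Slco1a1, Abcb4, Abcc2 and Abcc4 hold 0.

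Neither basolateral exporter had knockout and control values apart. Abcc4, which moves bile acids back to blood together with glutathione, had 86.8, 48.3 and 48.1 CPM in knockout mice 49, 82 and 88, against 45.2, 69.8 and 40.6 CPM in control mice 42, 83 and 90. Mouse 49 was the high knockout liver and mouse 83 the high control liver. Its fold change was 0.23 in log2 units (SE 0.29; 95% interval from -0.44 to 0.90; adjusted p = 0.773 in edgeR). It turned to -0.10 without knockout mouse 49 and was 0.51 without control mouse 83. Abcc4 spans 118482692 to 118706219 on the minus strand of chromosome 14.

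Slc51b, the beta subunit of the organic solute transporter, was near the limit of detection. It had 9, 1 and 0 counts in knockout mice 49, 82 and 88, against 1, 26 and 7 counts in control mice 42, 83 and 90. Most of the control counts came from mouse 83, and the groups overlapped. Summed over each genotype the 10 counts in knockout and 34 in control livers gave a ratio of 0.323 with a 95% interval from 0.142 to 0.668, which covers counting error only and not the spread between mice. In the edgeR fit without a filter on low counts its log2 fold change was -1.56 with an adjusted p of 0.659. Its partner subunit Slc51a had 0, 0 and 1 counts in the knockout mice and 2, 0 and 7 in the control mice. Slc51b shares 6.52% of its stretches of 50 bases with Rasl12, a gene on the other strand that overlaps it, and spans 65412714 to 65422955 on chromosome 9.

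Markers of bile duct cells, which also carry bile acid transporters, are given beside these low counts. Of 11 markers 10 were tested, and 9 of them had a negative fold change (median -0.76), whereas 47.3% of all genes tested had a positive one. At an unadjusted p under 0.05, 2 were lower, against 5.95% of all genes tested, and none passed the adjusted threshold in edgeR. The summed level of the duct markers lay between 317.7 and 804 CPM in knockout and between 565 and 1376 CPM in control livers. Mouse 83 was the highest of the 6 and mouse 49 the lowest. Control mouse 83 was highest in both Slc51b and the duct markers, whereas knockout mouse 49 had the next highest Slc51b count and the lowest duct sum. The part of duct cells in the Slc51b counts was not tested.

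The livers differed within each genotype in a way that divided the transporters. In knockout mouse 49 the carriers Slc10a1, Slco1b2 and Slco2b1 and the pump Abcb11 were the lowest of the knockout group, and Abcb4, Abcc2, Abcc4 and Slco1a1 the highest. In control mouse 42, 6 of the 9 tested transporters were the highest of the control group, among them Slco1a1, Abcb4 and Abcc2. Abcb11 followed the mean pattern of the other tested transporters most closely, with a Pearson r of 0.96 over the 6 mice as a description. The value was 0.09 for Abcc4, 0.15 for Abcb4 and 0.21 for Slco1a1. The mice share libraries and scaling in all of these, and no test was made.

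**Figure D3:**
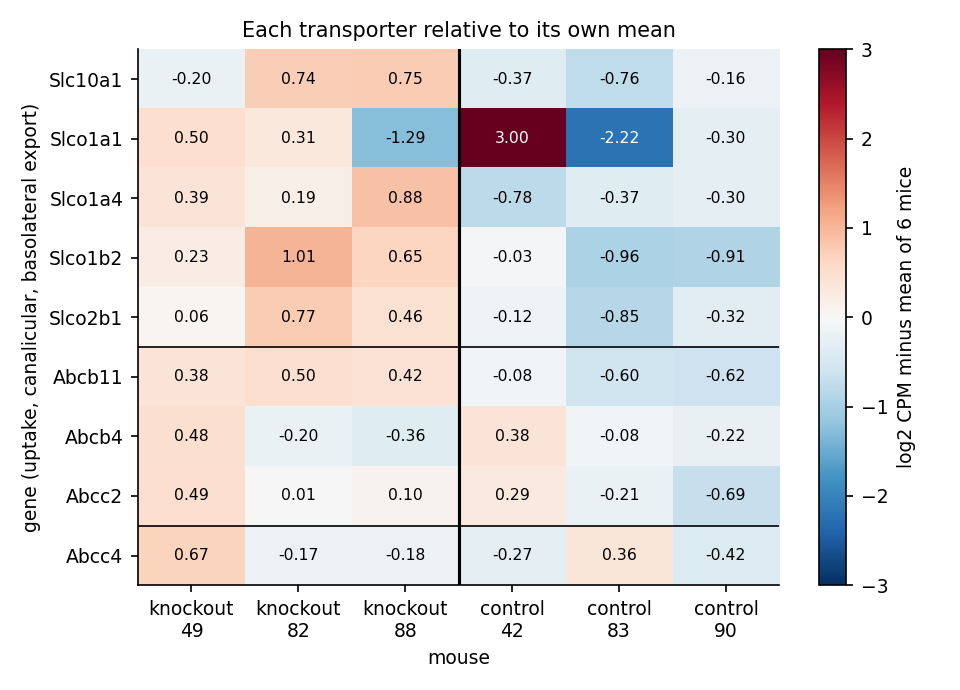
Log2 CPM of each tested transporter in each mouse minus its own mean over the 6 mice, knockout mice on the left, with lines between uptake carriers, canalicular pumps and the basolateral exporter. Knockout mice 82 and 88 are positive in Slc10a1, Slco1a4, Slco1b2, Slco2b1 and Abcb11, while Slco1a1 runs from 3.00 in control mouse 42 to -2.22 in control mouse 83.

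Levels between genes were compared per kilobase of exon. In knockout livers the order of mean levels began with Slco1b2 (168 ± 44.4 CPM per kb), Abcc2 (129 ± 23.8), Slc10a1 (96.1 ± 32.0) and Abcb11 (90.03 ± 3.55; SD, n = 3). In control livers it began with Abcc2 (100.5 ± 33.7 CPM per kb), Slco1b2 (71.4 ± 27.9), Slc10a1 (51.4 ± 10.4) and Abcb11 (50.05 ± 11.3; SD, n = 3). Neighbours among these leading 4 overlapped in both genotypes, so the change of place between Slco1b2 and Abcc2 was within the spread between mice. Abcb4 came next, at 36.5 ± 11.9 CPM per kb in knockout and 37.2 ± 8.44 in control livers. It was separated from Abcb11 in knockout livers, and in control livers it overlapped Abcb11. Slco2b1 stood at 23.6 ± 5.70 CPM per kb in knockout and 13.0 ± 3.21 in control livers, and Abcc4 at 9.56 ± 3.49 in knockout and 8.12 ± 2.46 in control livers. The Slco1a genes had the lowest means of the tested transporters. Slco1a4 was at 7.32 ± 1.87 CPM per kb in knockout and 3.69 ± 0.630 in control livers, and Slco1a1 at 1.84 ± 0.983 in knockout and 5.47 ± 7.92 in control livers. Single mice overlapped, since Slco1a1 in control mouse 42 (14.6 CPM per kb) was above Abcc4 in each control mouse. In knockout livers Slco1a4 overlapped Abcc4.

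**Figure D4:**
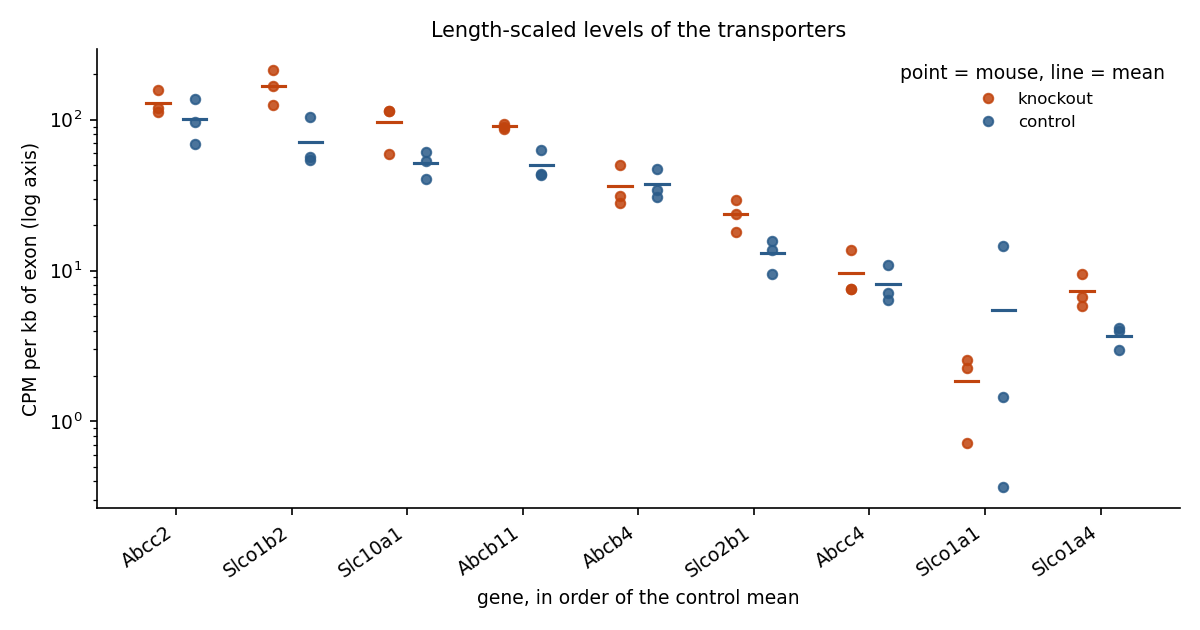
Length-scaled level of each tested transporter (CPM per kb of exon, log axis) in order of the control mean, each point a mouse and each line a group mean, knockout left of control. Abcc2, Slco1b2, Slc10a1 and Abcb11 had the highest means in both genotypes. Abcb4 lay below all of them in knockout livers and overlapped Slc10a1 and Abcb11 in control livers.

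Other transporters of the hepatobiliary system were read from a list of 23, of which 18 were tested. Of these, 8 had an unadjusted p under 0.05 in the higher direction and 0 in the lower, against 5.06% and 5.95% of all genes tested. None passed the adjusted threshold in edgeR, and the median log2 fold change of the list was 0.21. The half-transporters Abcg5 and Abcg8, which pair to secrete cholesterol into bile, had its smallest p. Abcg5 had 89.8, 97.4 and 176 CPM in knockout mice 49, 82 and 88, against 51.3, 53.0 and 64.0 CPM in control mice 42, 83 and 90 (log2 fold change 1.11, SE 0.27, adjusted p = 0.288 in edgeR and 0.0206 in DESeq2). Abcg8 had 73.9, 72.6 and 142 CPM in knockout livers, against 52.1, 36.7 and 39.8 CPM in control livers (1.17, SE 0.29, adjusted p = 0.288 in edgeR and 0.0214 in DESeq2). In both genes every knockout mouse was above every control mouse, as in 8.94% of all genes tested. Next were Slc47a1, an organic cation exporter (0.84, SE 0.27, adjusted p = 0.347 in edgeR), and Abcc6, an ATP-driven pump of the MRP family (0.87, SE 0.32, adjusted p = 0.384 in edgeR). The basolateral exporter Abcc3 (MRP3) lay between 271 and 294.5 CPM in knockout and between 131 and 237 CPM in control livers (log2 fold change 0.56, SE 0.24, adjusted p = 0.453 in edgeR).

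Of 20 genes of bile acid synthesis and conjugation, 19 were tested and 18 had a positive fold change, with a median of 0.38. An unadjusted p under 0.05 was reached by 7 in the higher and 1 in the lower direction, and by none after adjustment in edgeR. Over all genes tested, 47.3% had a positive fold change, and 5.06% were higher and 5.95% lower at that unadjusted level. Slc27a5, the ligase that activates bile acids for conjugation, had 659, 1154 and 1056 CPM in knockout mice 49, 82 and 88, against 500.3, 330.0 and 578 CPM in control mice 42, 83 and 90 (log2 fold change 1.03, SE 0.31, adjusted p = 0.323 in edgeR and 0.0392 in DESeq2). Cyp39a1, an oxysterol hydroxylase, was at 1.39 (SE 0.40) and Acox2, a peroxisomal oxidase that shortens the side chain, at 0.61 (SE 0.20), with adjusted p of 0.323 for Cyp39a1 and 0.347 for Acox2 in edgeR. The lower gene was Cyp8b1, the sterol 12-alpha-hydroxylase, at 35.5, 6.59 and 11.9 CPM in knockout mice, against 103.9, 29.4 and 71.7 CPM in control mice (-1.92, SE 0.63, adjusted p = 0.347 in edgeR), the groups overlapping through mice 49 and 83. The rate-limiting enzyme Cyp7a1 overlapped widely, with 103 ± 31.7 CPM in knockout and 85.8 ± 53.1 CPM in control livers (SD, n = 3 each; 0.26, SE 0.41, adjusted p = 0.824 in edgeR).

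Among 28 tested genes of 30 that regulate these transporters, 23 had a positive fold change (median 0.38), against 47.3% of all genes tested. An unadjusted p under 0.05 marked 7 as higher and 0 as lower, against 5.06% and 5.95% of all genes tested. None passed the adjusted threshold in edgeR. CAR (Nr1i3) had 9.79, 14.9 and 14.8 CPM in knockout mice 49, 82 and 88, against 5.73, 5.90 and 3.84 CPM in control mice 42, 83 and 90 (log2 fold change 1.34, SE 0.28, adjusted p = 0.227 in edgeR and 0.00429 in DESeq2). The FGF co-receptor Klb was at 0.91 (SE 0.23, adjusted p = 0.288 in edgeR and 0.0384 in DESeq2), the interleukin 6 receptor gene Il6ra at 0.82 (SE 0.28, adjusted p = 0.359) and the hepatocyte factor Hnf4a at 0.65 (SE 0.24, adjusted p = 0.384). FXR (Nr1h4) itself had 116 ± 4.01 CPM in knockout and 103 ± 17.2 CPM in control livers (SD, n = 3 each; 0.18, SE 0.18, adjusted p = 0.726 in edgeR). Its target Nr0b2, the repressor SHP, had 40.1 ± 23.4 CPM in knockout and 27.8 ± 13.6 CPM in control livers (0.53, SE 0.46, adjusted p = 0.672 in edgeR). Both overlapped between genotypes.

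Genes whose pattern over the 6 mice was most like the mean pattern of the 9 tested transporters were Thpo, which encodes the platelet hormone thrombopoietin made by liver, the iron regulatory protein gene Ireb2, the lysosomal sulfatase gene Arsa, the kinase gene Araf and the disulfide-forming oxidase gene Qsox1. Their Pearson r over 6 mice lay between 0.989 and 0.997, picked from 12598 genes as the closest, so that values this high come with the choice. Their own log2 fold changes lay between 0.23 (Qsox1) and 0.47 (Ireb2), with adjusted p of at least 0.427 in edgeR.

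Marker lists of the cell types of liver were read beside the transporters, and no list had a gene past the adjusted threshold in edgeR. At that threshold DESeq2 passed 1 hepatocyte marker and 1 acute phase gene as higher. It passed 3 stellate cell and 3 neutrophil and lymphocyte markers as lower, with 1.81% of its genes passing. It passed 0 macrophage, endothelial, blood cell and bile duct cell markers. Of all genes tested, 47.3% had a positive fold change. An unadjusted p under 0.05 was found for 5.06% as higher and 5.95% as lower in knockout livers. Over the 13 hepatocyte markers, 10 had a positive fold change (median 0.21) and 2 an unadjusted p under 0.05, both higher. Their mean log2 CPM, relative to the control mean, was 0.07, 0.43 and 0.42 in knockout mice 49, 82 and 88, against -0.04, -0.36 and 0.40 in control mice 42, 83 and 90, so the groups overlapped. With libraries scaled to these markers, Slco1b2 was at 0.88, Slco1a4 at 0.66, Slc10a1 at 0.58, Slco2b1 at 0.54 and Abcb11 at 0.51, all on the log2 scale, while the median of all genes shifted to -0.34. Of these 5, Slco1b2 alone then had an unadjusted p under 0.05. Stellate cell markers were negative in 9 of 10 (median -0.56), and 4 were lower at an unadjusted p under 0.05. Their summed level lay between 312 and 730.3 CPM in knockout and between 860.3 and 991 CPM in control livers. Lrat, whose promoter drives Cre and which makes retinyl esters, had 26.1, 50.8 and 46.8 CPM in knockout mice, against 92.1, 100.2 and 67.3 CPM in control mice (-1.07, SE 0.27, adjusted p = 0.297 in edgeR and 0.033 in DESeq2). Neutrophil and lymphocyte markers were negative in 7 of 7 (median -1.92), and 5 were lower at an unadjusted p under 0.05. Their sums lay between 14.2 and 19.3 CPM in knockout and between 19.5 and 89.4 CPM in control livers. Acute phase genes, which rise in liver with inflammation, while Slc10a1 is known to fall, were positive in 9 of 13 (median 0.18). Of them, 1 was higher at an unadjusted p under 0.05. Their sums lay between 8198 and 18372 CPM in knockout and between 6159 and 12948 CPM in control livers. The median log2 fold change was 0.13 over 7 macrophage and -0.03 over 8 endothelial markers, and it was 0.99 over 4 blood cell markers. At an unadjusted p under 0.05, 1 macrophage marker was higher and 1 lower, and 0 endothelial and blood cell markers were either. The sums of all 3 lists overlapped between genotypes. The haemoglobin gene Hba-a1 had 47.8, 1.95 and 1.01 CPM in knockout mice 49, 82 and 88, against 2.53, 6.30 and 10.3 CPM in control mice 42, 83 and 90. Mouse 49 was the highest of the 6 for Hba-a1, while the other 2 knockout mice were below each control mouse. The haemoglobin genes Hbb-bs and Hbb-bt had the same pattern, and Alas2, the remaining tested blood cell marker, did not. Alas2 had 72.7, 71.5 and 33.8 CPM in knockout mice, against 71.2, 13.2 and 31.7 CPM in control mice, in the same order. The part of these cell types in the transporter differences was not tested beyond the hepatocyte scaling.

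**Figure D5:**
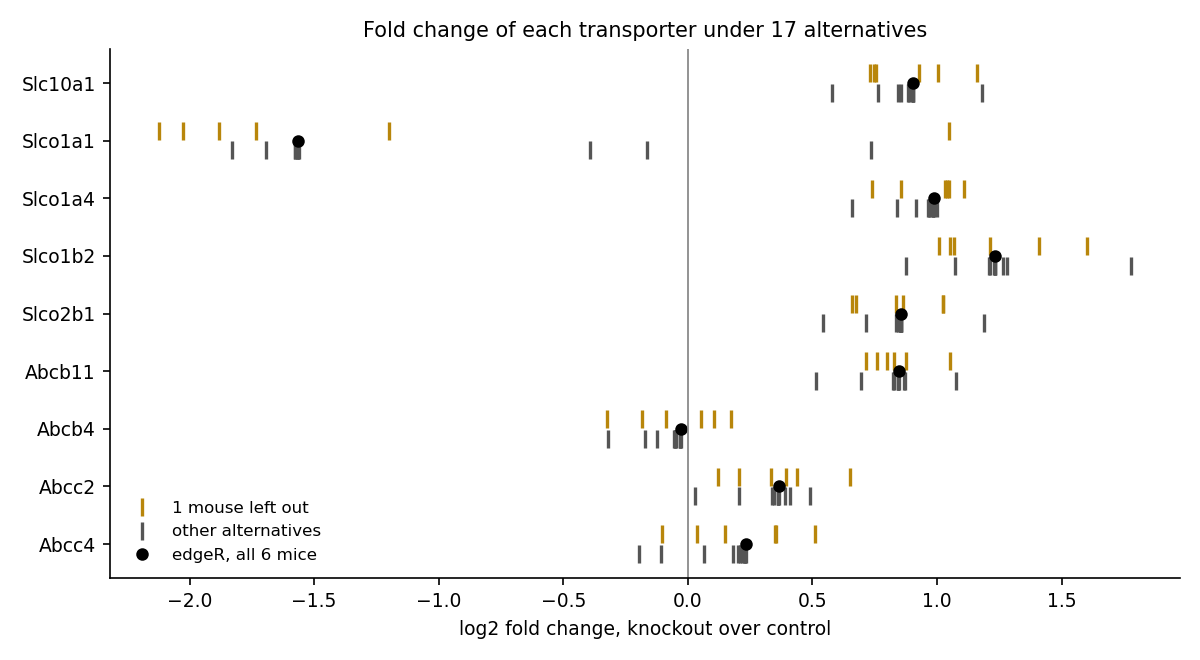
Log2 fold change of knockout over control for the 9 tested transporters with all 6 mice (black point), with each mouse left out (upper ticks) and under the other alternatives (lower ticks). Slc10a1, Slco1a4, Slco1b2, Slco2b1 and Abcb11 stay above 0 in all 17 alternatives, while Slco1a1, Abcb4 and Abcc4 cross 0.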

How the data were processed

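Whole liver RNA of 6 mice was isolated with TRIzol and made into libraries with the NEBNext Ultra RNA kit, per the labels' protocols. The authors deposited raw counts per gene symbol for each mouse in a single table. Reads were processed with Trimmomatic, FastQC, STAR and HTSeq on mm10, per the submitters' processing notes. The sources used here give no versions, annotation or strand setting. The table held 21983 genes and 0 columns of other samples.

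Mice were assigned to genotypes from their titles. filterByExpr kept 13153 genes. In edgeR 4.0.16 (R 4.3.3), TMM scaling was followed by a quasi-likelihood F test with genotype as the only term, with Benjamini-Hochberg adjustment over all genes tested. A positive log2 fold change means higher in knockout. The SE comes from the F statistic and intervals are at the 95% level. CPM is the count scaled to 1e+06 per TMM-scaled library. The exact permutation test used the 20 assignments of 3 mice against 3.

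The transporters, lists and alternatives were chosen with earlier results of these data known. Other genes were named by a rule: the 4 with the smallest p in each of 3 lists, the sex-linked genes, Prmt1 (Lrat, taken with it, is among the stellate cell markers), and the 5 genes closest in pattern. Abcc3, Cyp7a1, Nr1h4, Nr0b2, Slc51a, Slco1a5, Elovl3, Hba-a1, Hbb-bs, Hbb-bt and Alas2 were added after their values were seen. So were the male-biased genes Cyp2d9, Hsd3b5, Cyp2u1, Ugt2b38, Cyp4a12a and Cyp4a12b. Xist was not analysed here. Exon lengths and overlaps come from GENCODE M21 (GRCm38), and promoters from RefSeq, which held all 10 genes. DESeq2 1.42.0 and limma 3.58.1 (voom) were alternatives. Slc51b had too few counts to pass the filter. Intervals from counts cover counting error only.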

Additional observations from a re-analysis of the deposited data

How the results depend on the processing

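No paired analysis was possible because the mouse numbers are not shared between genotypes. All 17 alternatives were run. The 5 transporters at an unadjusted p under 0.05 were the same genes in 16 of them, joined by Slco1a1 without control mouse 83. With libraries scaled to hepatocyte markers 2 transporters were under 0.05: Slco1b2, 1 of the 5, and Slco1a1, which was not among them. The number of all genes under 0.05 moved as well. It was 1448 of 13153 in the main fit and 1748 of 13153 with hepatocyte scaling. Across the alternatives on the filtered and unfiltered genes it ran from 775 of 13423 without knockout mouse 82 to 2519 of 13393 without control mouse 42. The median log2 fold change of all genes was -0.17 with total counts only and -0.34 with hepatocyte scaling, against -0.02. The number of transporters past an adjusted p of 0.05 was 3 in DESeq2 and 0 in the others. Over all genes it was 238 in DESeq2, 76 with hepatocyte scaling, 6 when mice 42 and 49 were set apart from the 4 over 80 by a term in the model, 4 without a low-count filter, 0 in limma-voom, and between 0 and 13 with 1 mouse left out, the 13 being without knockout mouse 49. Signs turned for Slco1a1 with the 4 mice over 80 alone (0.74) and with 1 mouse left out (-2.12 to 1.05, the positive value being without control mouse 42); for Abcc4 with hepatocyte scaling (-0.11), the 4 mice alone (-0.20) and with 1 mouse left out (-0.10 to 0.51); and for Abcb4 with 1 mouse left out (-0.32 to 0.17). The cause was not tested. The 4 mice over 80 alone gave 1.78 for Slco1b2. Slc51b had 10 counts in knockout and 34 in control livers, too few to pass the filter, and they were spread unevenly between mice.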
